A study of Mus musculus with 4 samples.

Results

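Matrix-degrading enzymes and their inhibitors were followed in cells isolated from the injured spinal cord of aged mice. The 10 genes, chosen by name, encode 3 matrix metalloproteinases (Mmp12, Mmp14 and Mmp2), the transmembrane protease Adam8, the secreted aggrecanase Adamts1, the urokinase-type plasminogen activator Plau, heparanase (Hpse) and 3 tissue inhibitors of metalloproteinases (Timp1, Timp2 and Timp3). They are 10 of the 53647 genes in the deposited tables, and each symbol matched 1 row. No measured value entered the choice by name, but the set was proposed with earlier results of these data in view.

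The libraries came from aged C57BL/6J mice whose cord was collected 28 days after spinal cord injury. One group had received an anti-CD8 antibody, which is directed at a surface protein of cytotoxic T cells, and the other IgG, the control antibody. Each group had 2 libraries, described as biological replicates, and both groups were aged and injured, so no effect of age or injury can be read here. The labels give neither the number of mice behind a library, nor their exact age, nor the dose and timing of the antibody. A 2 mm cord segment that held the lesion was dissociated, myelin was removed with beads, and single cells were profiled from the 3′ end of their transcripts on the 10x Genomics platform, which counts unique molecular identifiers (UMIs).

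After removal of low-quality barcodes and likely doublets, 7481 and 7816 cells remained in the anti-CD8 libraries and 6108 and 6290 in the IgG libraries, 27695 in all. The deposited libraries held 152457679 to 170539226 UMIs each, and any pair of libraries shared 7 to 23 barcodes. Cells were grouped into classes from marker genes: 13569 microglia-like, 4920 Spp1-high myeloid, 1672 macrophage-like, 1630 endothelial-like, 571 mural-like and 786 ependymal-like cells are the classes compared here, written below without the suffix. T cells made up 4.85% and 2.79% of the anti-CD8 libraries and 5.04% and 10.2% of the IgG libraries. Within T cells the summed Cd8a level was 186 and 108 CPM (UMIs of the gene per 1e6 UMIs of the class) in the anti-CD8 libraries and 341 and 249 CPM in the IgG libraries.

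Metalloproteinases cut collagens, elastin, laminins and proteoglycans, and most are made as inactive precursors. MMP14 sits in the cell membrane and activates the MMP2 precursor, and TIMP2 takes part in this activation at low amounts and blocks it at high amounts. Urokinase turns plasminogen into plasmin, a broad protease that opens fibrin and other matrix, and heparanase trims the heparan sulfate chains that hold growth factors near cells. In an injured cord, invading and resident phagocytes, vessels and the ependymal lining all contact this matrix, and a long-lasting scar forms around the lesion.

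Mmp12 and Timp3 lay at opposite ends of the cell classes, as the values below show, and the sequence before and at their annotated gene starts is given for that reason. The windows are RefSeq promoter windows on GRCm38.p6 (250 bases before to 50 bases after each gene start), on the gene's strand, and capitals mark matches to 3 motifs searched on both strands. The motifs were the AP-1 element TGANTCA, the PU.1 element GAGGAAGT and the TATA element TATAAA.
Mmp12, first start, chr9:7344147-7344446, plus strand: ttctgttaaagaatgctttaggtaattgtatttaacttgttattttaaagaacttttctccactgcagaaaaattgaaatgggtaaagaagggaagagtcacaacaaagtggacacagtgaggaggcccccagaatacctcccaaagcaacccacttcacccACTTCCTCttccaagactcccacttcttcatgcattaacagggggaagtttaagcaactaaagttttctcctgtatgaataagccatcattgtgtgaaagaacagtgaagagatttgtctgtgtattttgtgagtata
Mmp12, second start, chr9:7347124-7347423, plus strand: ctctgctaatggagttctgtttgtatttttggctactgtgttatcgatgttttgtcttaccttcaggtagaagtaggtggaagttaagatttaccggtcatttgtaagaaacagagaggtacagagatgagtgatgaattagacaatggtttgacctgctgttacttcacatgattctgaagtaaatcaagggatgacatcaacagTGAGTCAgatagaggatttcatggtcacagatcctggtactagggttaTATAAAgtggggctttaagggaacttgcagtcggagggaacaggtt
Timp3, chr10:86300162-86300461, plus strand: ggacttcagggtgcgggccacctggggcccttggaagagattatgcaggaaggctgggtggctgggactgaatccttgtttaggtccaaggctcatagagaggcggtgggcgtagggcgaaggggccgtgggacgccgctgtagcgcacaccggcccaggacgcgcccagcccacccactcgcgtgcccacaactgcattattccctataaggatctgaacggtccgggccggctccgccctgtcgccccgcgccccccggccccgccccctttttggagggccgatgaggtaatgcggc

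The first Mmp12 window held a PU.1 match that began 88 bases before the start (position -88), on the minus strand. The second held an AP-1 match at -44 and a TATA match at 4. The Timp3 window held none of these letters and was rich in G and C, at 67.0%, against 38.7% and 40.7% in the 2 Mmp12 windows. Among 32851 mouse windows of this kind, 7.81% held the AP-1 letters, 3.20% the PU.1 letters and 13.6% the TATA letters. Windows were listed for 8 of the 10 genes, and among the others the Adamts1 window had a TATA match at -32. A match is a description of letters and not evidence that a factor binds there.

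Mmp12, macrophage elastase, was highest in Spp1-high myeloid cells. Its level there was 181 and 214 CPM in the anti-CD8 libraries and 204 and 219 CPM in the IgG libraries, 204 ± 16.8 CPM over the 4 libraries (SD, n = 4). Microglia, a class whose states differed widely as given below, stood at 40.0 ± 4.71 CPM and macrophages at 42.5 ± 13.5 CPM (SD, n = 4 each). The Spp1-high range lay wholly above every other class in the plot of levels by class, whereas proliferating cells, macrophages and microglia overlapped. On average 67.8% of a library's Mmp12 UMIs lay in Spp1-high cells and 25.8% in microglia. Endothelial cells, at 0.905 CPM, and T cells, at 2.21 CPM, marked the level that free RNA may give.

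**Figure D1:**
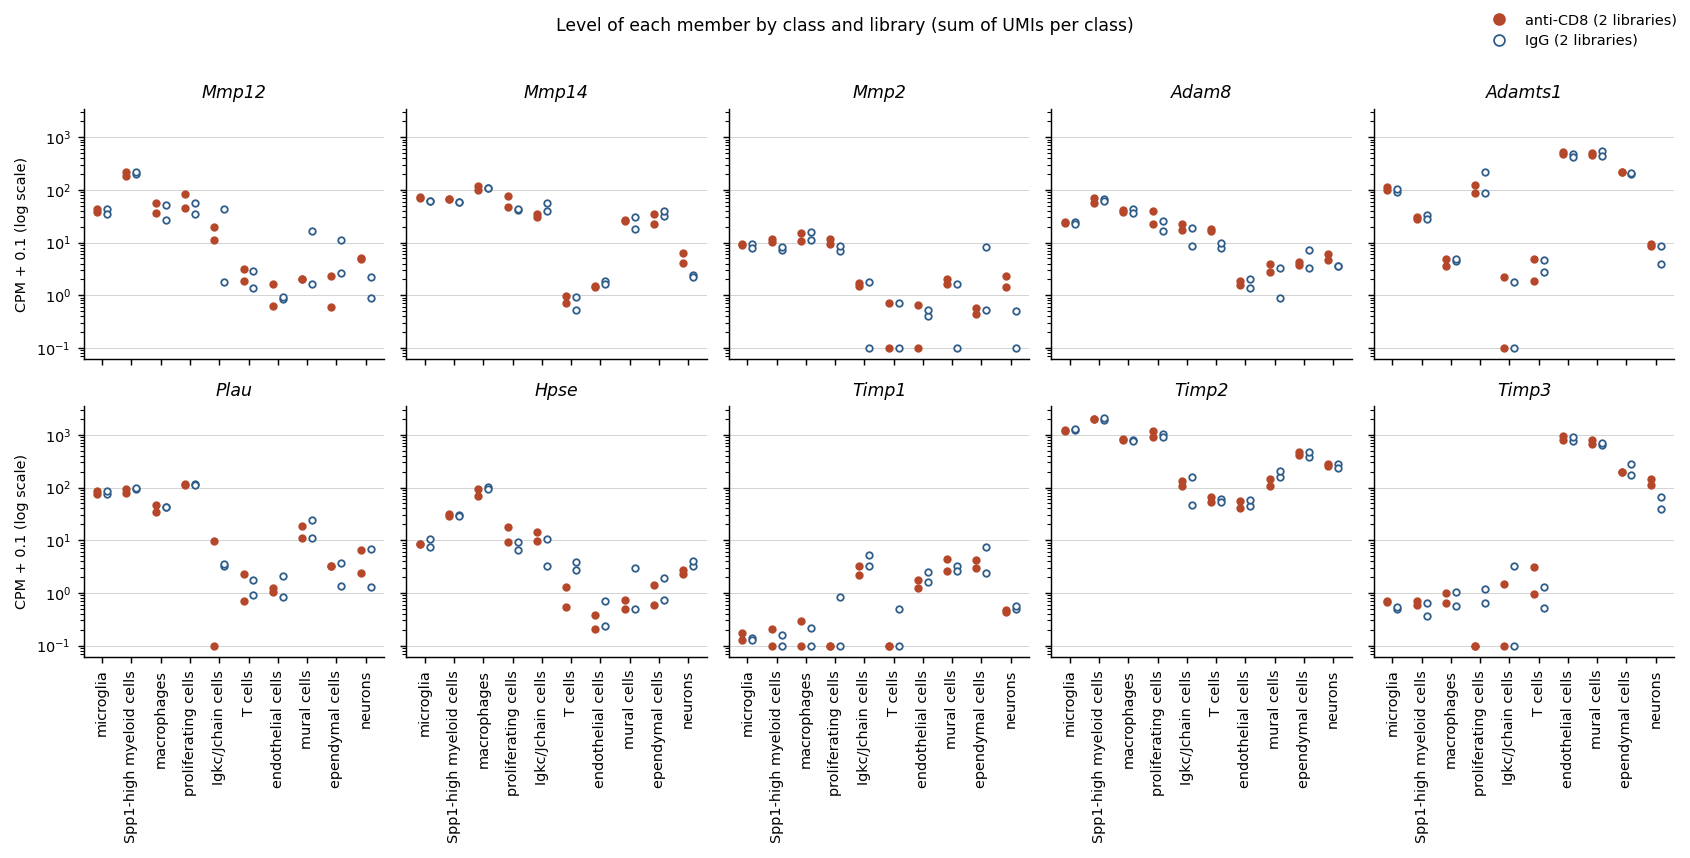
Level of each gene (CPM plus 0.1, log scale) in 10 cell classes, 1 point per library, anti-CD8 filled and left of IgG open. Mmp12, Adam8, Plau and Timp2 are high in myeloid classes, Timp3 is high in endothelial and mural cells, where its level is 844 ± 86.7 and 699 ± 76.0 CPM (SD, n = 4 each), and Timp1 is low throughout.

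Within the myeloid compartment Mmp12 differed strongly between cell states. The 11 myeloid clusters are named here by their 2 leading genes outside the lists of relatives given further on. The Fabp4/Atp6v0d2 cells (710 cells, Spp1-high), whose leading genes also include Gpnmb, held 351 and 434 CPM in the anti-CD8 libraries and 449 and 467 CPM in the IgG libraries. The Spp1/Postn cells (2072 cells) followed with 248 and 272 CPM in the anti-CD8 libraries and 229 and 251 CPM in the IgG libraries. Next were the AU022793/Kcnj2 cells (1843 cells), with 115 and 101 CPM in the anti-CD8 libraries and 158 and 112 CPM in the IgG libraries. These cells are counted in the microglia class, with 7 of 10 microglia markers at 2 times the macrophage level, but their mean log2 fold was 0.03 for the microglia list and 0.34 for the Spp1-high list. The ranges of these 3 states did not overlap. The remaining Spp1-high state, the Apoc4/Ms4a7 cells, was at 38.3 CPM, and the Gm10790/P2ry12 microglia, which express the homeostatic genes P2ry12, Siglech and Tmem119, were at 2.42 CPM. Of the other states in the microglia class, the Il12b/Cxcl2 cells were at 78.0 CPM and the Ifit2/Ifit3 cells at 20.0 CPM. The Gpr84/Il1b cells were at 5.8 CPM, the Zdhhc14/Tmem176a cells at 4.9 CPM and the Ccl4/Ccl3 cells at 3.9 CPM. States come from clusters of the same cells, so these levels are a description, although the 10 genes and their listed relatives were kept out of the genes used for clustering.

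**Figure D2:**
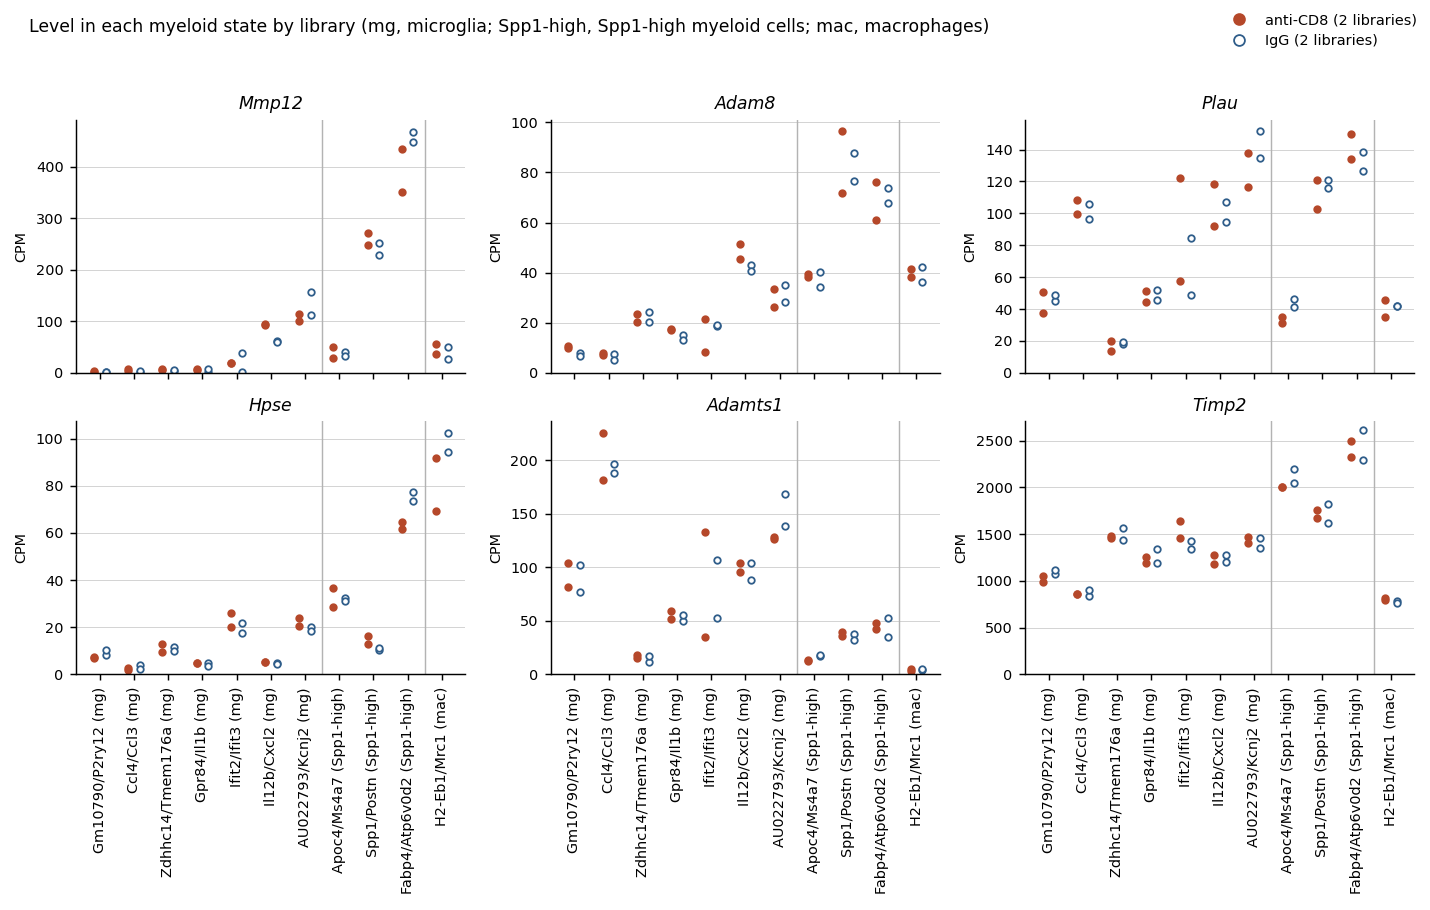
Level (CPM) of 6 genes in the 11 myeloid clusters, 1 point per library, anti-CD8 filled and left of IgG open. Mmp12 peaks in the Fabp4/Atp6v0d2 cells (425 ± 51.1 CPM), Adamts1 in the Ccl4/Ccl3 microglia (198 ± 19.3 CPM) and Hpse in the H2-Eb1/Mrc1 macrophages (89.4 ± 14.3 CPM; SD, n = 4 each).

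Mmp12 was also concentrated in few cells. At least 1 UMI was found in 3451 cells, 12.5% of the total, with a median of 3 UMIs among them and 856 in the highest cell. The top 1% of cells held 58.0% and 49.3% of all Mmp12 UMIs in the anti-CD8 libraries and 48.0% and 56.3% in the IgG libraries. For the other genes with over 1000 UMIs, the top 1% held between 6.47% (Timp2) and 35.1% (Timp3), counted over all libraries. A count of at least 20 Mmp12 UMIs, a limit chosen after the values were seen, was reached by 599 cells: 125 and 175 in the anti-CD8 libraries and 162 and 137 in the IgG libraries. Of these, 40.1% were Spp1/Postn cells and 24.7% Fabp4/Atp6v0d2 cells. The limit was reached by 11.5% and 25.5% of Fabp4/Atp6v0d2 cells in the anti-CD8 libraries and by 24.9% and 22.2% in the IgG libraries, so 1 anti-CD8 library lay apart from the other 3.

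Depth differs between classes, and shares of positive cells were therefore also taken after each cell was thinned to 2000 UMIs. The thinned share with Mmp12 was 11.7% to 15.4% of Spp1-high cells over the 4 libraries, against 2.03% to 3.35% of microglia. T cells, which should lack the gene, had 0.279% to 0.459%. Median depth before thinning was 25557 to 31011 UMIs in Spp1-high cells and 6181 to 7312 in T cells. Depth also differed between the groups. Over all cells the median was 17284 and 18365.5 UMIs in the anti-CD8 libraries and 21950.5 and 20469.5 in the IgG libraries. In Spp1-high cells it was 25557 and 27456.5 in the anti-CD8 libraries and 30465.5 and 31010.5 in the IgG libraries. Shares without thinning and counts of cells with at least 20 UMIs are not adjusted for this.

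**Figure D3:**
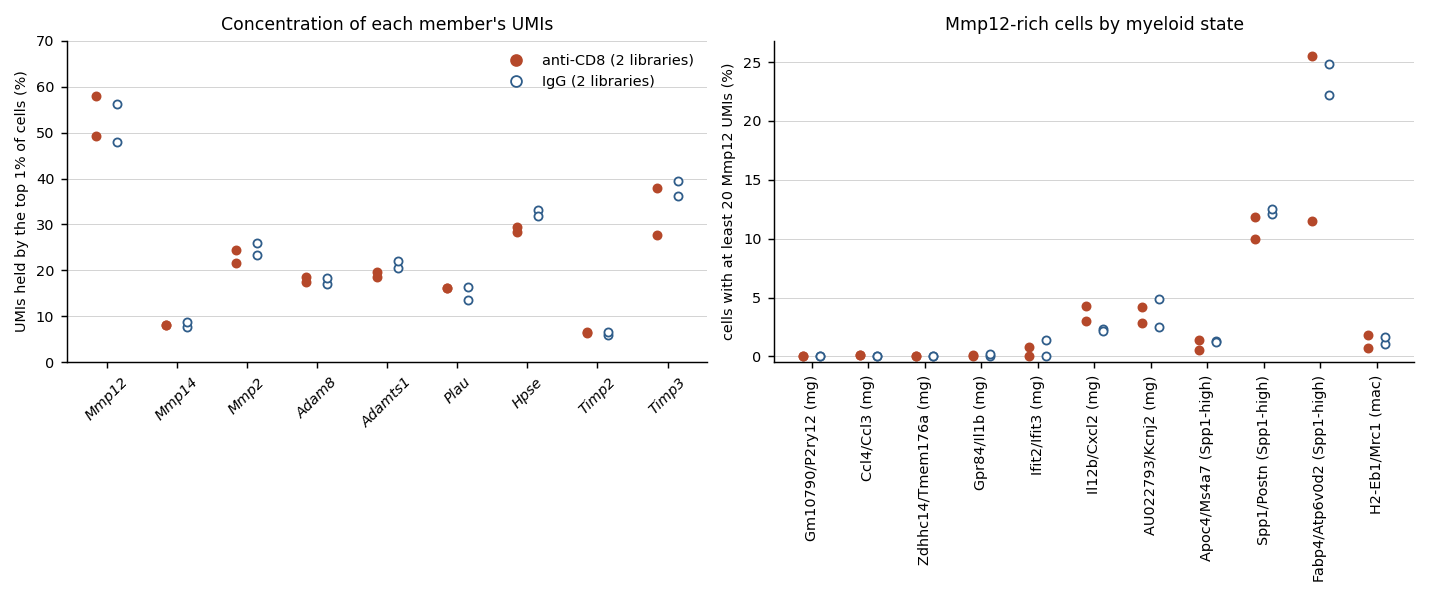
Left, percent of each gene's UMIs held by the 1% of cells with the most, per library, without Timp1 (all of whose UMIs lie in under 1% of cells). Right, percent of cells with at least 20 Mmp12 UMIs in each myeloid cluster, per library, anti-CD8 filled and left of IgG open; the Spp1/Postn and Fabp4/Atp6v0d2 cells stand highest, at 11.6% and 20.9% over all libraries.

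Mmp14, the membrane-anchored activator of MMP2, was spread more evenly over phagocytes. Macrophages held 120.5 and 102 CPM in the anti-CD8 libraries and 109 and 108 CPM in the IgG libraries. Microglia averaged 66.6 ± 5.50 CPM and Spp1-high cells 62.8 ± 4.42 CPM (SD, n = 4 each), and these 2 classes overlapped. Ependymal cells had 32.1 ± 6.89 CPM and mural cells 25.1 ± 5.05 CPM, while endothelial cells, at 1.51 CPM, lay near the T-cell level of 0.674 CPM. The 46 fibroblasts had 170.0 ± 41.8 CPM, but 1 library held only 5 of these cells. At least 1 UMI was seen in 13588 cells, 49.1% of the total.

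Mmp2, gelatinase A, gave few UMIs in phagocytes: 13.1 ± 2.74 CPM in macrophages, 9.34 ± 1.93 CPM in Spp1-high cells and 8.92 ± 0.732 CPM in microglia (SD, n = 4 each). T cells were at 0.303 CPM and endothelial cells at 0.317 CPM. The highest Mmp2 level was in fibroblasts, at 176 ± 130 CPM, again from a class of 46 cells. In ependymal cells 3 libraries lay between 0.336 and 0.487 CPM, and IgG replicate 2 at 8.01 CPM, where 17 of 31 UMIs came from 1 cell.

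Adam8, a protease of leukocytes that sheds cell-surface proteins, shared its 2 highest myeloid states with Mmp12 but not the order of the others. Spp1-high cells held 64.1 ± 6.08 CPM, macrophages 39.6 ± 2.90 CPM and microglia 23.6 ± 1.18 CPM (SD, n = 4 each). The Spp1/Postn cells had 96.4 and 71.8 CPM in the anti-CD8 libraries and 87.8 and 76.5 CPM in the IgG libraries, and overlapped with the Fabp4/Atp6v0d2 cells at 69.7 ± 6.75 CPM. The AU022793/Kcnj2 cells, next for Mmp12, had 30.8 CPM of Adam8, below the Il12b/Cxcl2 cells at 45.2 CPM. Neutrophils were highest, at 398 ± 91.4 CPM, from 45 UMIs in 16 cells. Lymphocytes were not uniformly low: the Trdc/Icos T cells, which carry Il17a among their leading genes, had 48.4 and 43.3 CPM in the anti-CD8 libraries and 11.5 and 39.9 CPM in the IgG libraries. These cells numbered 104 and 65 in the anti-CD8 libraries and only 22 and 70 in the IgG libraries, and their groups were not tested.

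Adamts1, a secreted protease that cuts aggrecan and versican, was highest in vascular and ependymal cells, with a lower level in microglia. Mural cells had 495 and 463 CPM in the anti-CD8 libraries and 543 and 432 CPM in the IgG libraries. Endothelial cells overlapped them, at 479.8 ± 36.7 CPM, and ependymal cells had 212 ± 7.35 CPM (SD, n = 4 each). Within mural cells the Acta2/Tagln cells, which express smooth muscle genes, held 1273 ± 339 CPM, the Rgs5/Vtn cells 387 ± 9.39 CPM and the Vtn/Atp13a5 cells 87.5 ± 68.9 CPM. The Rgs5/Vtn cells also carried endothelial Cldn5 at 3391 to 4127 CPM, against 5000 to 5709 CPM in endothelial cells, and its part in their level was not tested.

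Among phagocytes Adamts1 had its own order. Microglia had 102 ± 9.99 CPM, Spp1-high cells 29.9 ± 2.62 CPM and macrophages 4.32 ± 0.614 CPM (SD, n = 4 each). The Ccl4/Ccl3 microglia, with chemokine genes leading, held 181 and 225 CPM in the anti-CD8 libraries and 188 and 197 CPM in the IgG libraries. Their range overlapped that of ependymal cells. Of the immediate early genes, which can rise during tissue dissociation, Atf3 averaged 1532 CPM and Jun 1284 CPM in the Ccl4/Ccl3 microglia. Other immediate early genes and the remaining myeloid states are not compared here. In the H2-Eb1/Mrc1 macrophages, where Adamts1 was lowest, Atf3 was 857 CPM and Jun 713 CPM. The part of dissociation in these levels was not tested.

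Plau, the plasminogen activator, was found in most phagocyte states. Spp1-high cells had 92.5 and 80.0 CPM in the anti-CD8 libraries and 93.8 and 97.3 CPM in the IgG libraries. Microglia averaged 80.1 ± 6.00 CPM and macrophages 41.1 ± 4.44 CPM (SD, n = 4 each). Proliferating cells, which also carried microglia markers, lay above both, at 114 ± 4.11 CPM. By state the Fabp4/Atp6v0d2 cells (137 ± 9.71 CPM) and the AU022793/Kcnj2 cells (135 ± 14.3 CPM) were highest and overlapped, and the Zdhhc14/Tmem176a microglia were lowest at 17.8 ± 2.93 CPM.

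Hpse, heparanase, had its highest level of the 6 classes in macrophages, as did Mmp14 and Mmp2. In macrophages its level was 69.1 and 91.8 CPM in the anti-CD8 libraries and 102 and 94.4 CPM in the IgG libraries. On average 44.3% of a library's Hpse UMIs lay in Spp1-high cells and 28.2% in macrophages. Spp1-high cells had 30.2 ± 1.15 CPM and microglia 8.52 ± 1.26 CPM (SD, n = 4 each), and no 2 of these 3 ranges overlapped. The Fabp4/Atp6v0d2 cells, at 69.3 ± 7.45 CPM, overlapped with the macrophages. After thinning, 8.01% to 13.5% of macrophages held a Hpse UMI, against 0% to 0.977% of T cells.

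Of the 6 classes, each of the 3 inhibitors was highest in a different one, although some classes held more than 1 of them. Timp2 was high in phagocytes: 1954 and 1959 CPM in Spp1-high cells of the anti-CD8 libraries and 1893 and 2096 CPM in those of the IgG libraries. Microglia had 1225 ± 37.5 CPM and macrophages 789 ± 26.1 CPM (SD, n = 4 each). Proliferating cells had 1014 ± 139 CPM and ependymal cells 427 ± 45.4 CPM. The 46 fibroblasts had 794.5 ± 355 CPM and the 63 astrocytes 446 ± 168 CPM (SD, n = 4 each), each with 1 library of only 5 cells. By state Timp2 was highest in the Fabp4/Atp6v0d2 cells, at 2431 ± 151 CPM, the state that also held the most Mmp12. Endothelial cells, at 49.9 ± 8.40 CPM, did not differ from the T cells, at 57.8 ± 6.35 CPM, beyond the spread of the libraries. After thinning 6.64% to 9.68% of endothelial cells and 8.14% to 9.63% of T cells held a Timp2 UMI. The part of free RNA in either level was not tested.

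Timp3, which binds to the matrix itself, had the reverse pattern between phagocytes and vascular cells, while ependymal cells and fibroblasts held both Timp2 and Timp3. Endothelial cells held 791 and 943 CPM in the anti-CD8 libraries and 755 and 889 CPM in the IgG libraries. Mural cells overlapped them, at 699 ± 76.0 CPM, ependymal cells had 208 ± 45.3 CPM, and the 46 fibroblasts had 1542 ± 496 CPM (SD, n = 4 each). The 3 phagocyte classes lay between 0.475 and 0.712 CPM, not above the T cells at 1.38 CPM. Among neurons the 70 Pkd2l1/Pkd1l2 cells, whose leading genes mark neurons that contact the cerebrospinal fluid, had 416 ± 69.5 CPM, against 7.62 to 20.95 CPM in the other neurons over the 4 libraries. On average 63.0% of Timp3 UMIs came from endothelial cells, 19.0% from mural cells and 9.33% from ependymal cells. On GRCm38 Timp3 lies inside Syn3, which is transcribed from the opposite strand; Syn3 was 40.8 CPM in endothelial cells and 169.7 CPM in neurons.

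Timp1, the inhibitor often induced by injury, was scarce: 312 UMIs in 205 cells, 0.740% of all cells. Fibroblasts had 74.2 ± 46.3 CPM from 64 UMIs and astrocytes 30.1 ± 21.8 CPM from 43 UMIs. Ependymal cells had 4.18 ± 2.28 CPM, mural cells 3.10 ± 0.840 CPM and endothelial cells 1.68 ± 0.521 CPM (SD, n = 4 each). In 13569 microglia only 13 Timp1 UMIs were counted. Timp1 lies inside Syn1 on the opposite strand on GRCm38.

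Anti-CD8 and IgG libraries were then compared within each class, with UMIs summed per library and class. Of the 60 pairs of gene and class, 45 had enough counts to be tested, and the quasi-likelihood test of edgeR, adjusted by Benjamini-Hochberg over all genes of the class, called 0 of them at an adjusted p under 0.05. The share of all tested genes that was called was 0% in microglia, 0% in Spp1-high cells, 0.00805% in macrophages, 0% in endothelial cells, 0.0486% in mural cells and 0.00701% in ependymal cells. DESeq2 also called 0 of the 45 pairs. Before adjustment 7 pairs had a p under 0.05, 3 with a higher and 4 with a lower level in the anti-CD8 libraries. Among all tested genes the share with such a p was 8.19% in microglia, 7.37% in Spp1-high cells, 5.19% in macrophages, 4.75% in endothelial cells, 5.21% in mural cells and 2.31% in ependymal cells. The median absolute log2 fold change was 0.12, 41 pairs lay within 0.5 of 0, and for 36 pairs the 95% interval lay within 1 on the log2 scale. A p-value that misses the threshold does not show that the levels were equal, and with 2 libraries a group the spread is known only roughly.

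**Figure D4:**
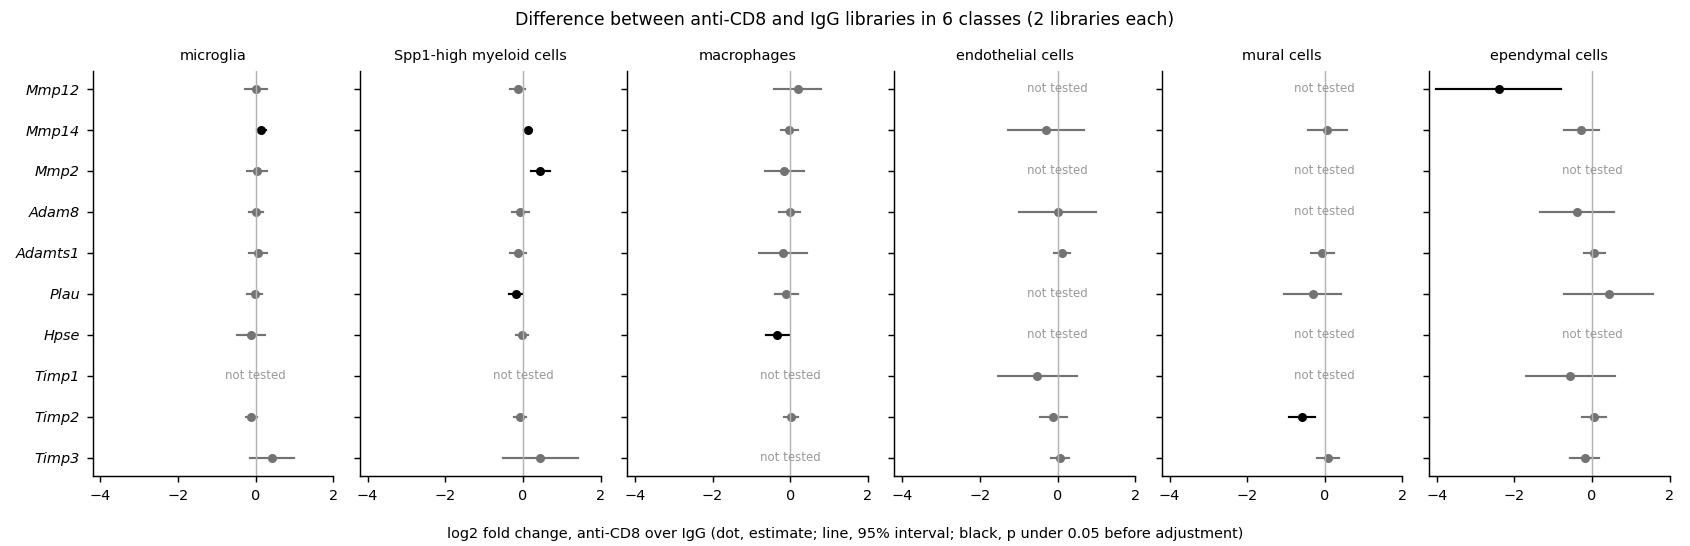
Log2 fold change, anti-CD8 over IgG, of each gene in the 6 classes, with its 95% interval; black marks p under 0.05 before adjustment and "not tested" marks pairs with too few counts. No pair passed adjustment; the widest black interval, Mmp12 in ependymal cells, runs from -4.02 to -0.79.

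Among metalloproteinases, Mmp14 in microglia was 70.4 and 72.2 CPM in the anti-CD8 libraries and 62.0 and 61.7 CPM in the IgG libraries, which on the log2 scale is a difference of 0.15 (SE 0.05, adjusted p = 0.59). In Spp1-high cells it was 66.1 and 67.1 CPM in the anti-CD8 libraries and 59.1 and 58.8 CPM in the IgG libraries (0.13, SE 0.05, adjusted p = 0.64). The groups did not overlap in either class, and in both the difference was small beside the levels. With 2 libraries a group, separated groups arise often without any difference, so non-overlap carries little weight here and below. Mmp2 in Spp1-high cells was 10.3 and 11.6 CPM in the anti-CD8 libraries and 7.30 and 8.24 CPM in the IgG libraries (0.45, SE 0.11, adjusted p = 0.53). Without IgG replicate 2, which leaves 1 IgG library that is assumed to vary like the others, its log2 fold change was 0.54 and its adjusted p 0.034 in the same test. With each of the other 3 libraries left out it was 0.36 to 0.53, with adjusted p from 0.29 to 0.64. Mmp12 in Spp1-high cells had a log2 fold change of -0.14 (95% interval -0.33 to 0.04, adjusted p = 0.75), and its groups overlapped.

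In ependymal cells Mmp12 gave 3 and 9 UMIs in the anti-CD8 libraries and 12 and 43 UMIs in the IgG libraries. One cell of IgG replicate 2 held 40 of those 43. The log2 fold change was -2.40 (SE 0.74, adjusted p = 1.0). It was -1.08 without IgG replicate 2 and -1.09 with the doublet-scored barcodes kept (adjusted p = 1.0 for both). Without anti-CD8 replicate 1 it was -1.59 (adjusted p = 1.0), without anti-CD8 replicate 2 it was -3.63 (adjusted p = 0.91), and without IgG replicate 1 it was -3.11 (adjusted p = 4.4e-06). What moves this value was not tested.

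For the other proteases, Plau in Spp1-high cells was lower by 0.19 on the log2 scale (-0.19, SE 0.07, adjusted p = 0.66), with non-overlapping groups given above. Hpse in macrophages differed by -0.33 on the log2 scale (SE 0.13, adjusted p = 0.93), also with groups that did not overlap. Without anti-CD8 replicate 2, which leaves 1 anti-CD8 library, it was -0.57 with an adjusted p of 0.022. With each of the other 3 libraries left out it was -0.41 to -0.14, with adjusted p from 0.56 to 1.0. When cells were clustered at a finer resolution the macrophage class shrank to 400 cells, and the Hpse value became 0.97 (adjusted p = 1.0). Adam8 in Spp1-high cells (-0.07, SE 0.10) and Adamts1 in mural cells (-0.06, SE 0.14) had overlapping groups.

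Among inhibitors, Timp2 in mural cells was 104.5 and 146 CPM in the anti-CD8 libraries and 159 and 206 CPM in the IgG libraries (-0.59, SE 0.16, adjusted p = 0.43). Without IgG replicate 1, again with 1 IgG library left, the value was -0.76 and its adjusted p 0.0071. With each of the other 3 libraries left out it was -0.82 to -0.39, with adjusted p from 0.21 to 0.76. Myeloid transcripts in the same mural sums were also lower in the anti-CD8 libraries for Spp1, at 141 and 303 CPM against 424 and 390 CPM in the IgG libraries. Gpnmb was 49.2 and 35.8 CPM in the anti-CD8 libraries and 75.0 and 71.4 CPM in the IgG libraries. Csf1r overlapped between the groups, at 56.9 and 58.4 CPM in the anti-CD8 libraries and 61.5 and 42.9 CPM in the IgG libraries. The part of myeloid RNA in the mural Timp2 level was not tested. Timp3 in endothelial cells differed by 0.06 (95% interval -0.17 to 0.30), Timp2 in Spp1-high cells by -0.07 (SE 0.07) and Timp1 in ependymal cells by -0.56 (SE 0.52).

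The comparison was repeated in each of the 11 myeloid clusters alone, a step added after the data were seen. Of 89 tested pairs of gene and cluster, 1 was called, against 0.0878% of all gene and cluster pairs and 0.029% of the genes of that cluster. It was Mmp12 in the Il12b/Cxcl2 cells (2236 cells), whose leading genes include Acod1, Ptgs2 and Il1rn, with 93.8 and 95.7 CPM in the anti-CD8 libraries and 61.8 and 60.6 CPM in the IgG libraries. Mmp12 was thus higher in both anti-CD8 libraries, by 0.59 on the log2 scale (SE 0.07, 95% interval 0.43 to 0.74), with an adjusted p of 0.028 over the genes of the cluster. That adjustment does not count the 11 clusters. The cluster is in the microglia class because 6 of 10 microglia markers stood at 2 times the macrophage level, but its mean log2 fold against other cells was -0.13 for the microglia list and 0.21 for the Spp1-high list. Spp1 was 6845 CPM there and 7147 CPM in the Apoc4/Ms4a7 cells of the Spp1-high class, and none of its 10 leading genes is in the microglia list. Under 9 other settings of the fit, all on the same cells, the log2 fold change lay between 0.57 and 0.63. The test of this cluster was not repeated at resolution 2, with doublets kept or with the stricter cell filter. In the microglia class as a whole the Mmp12 log2 fold change was 0.0 (95% interval -0.28 to 0.29).

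The share of Il12b/Cxcl2 cells with an Mmp12 UMI was 24.5% and 25.3% in the anti-CD8 libraries and 19.8% and 19.5% in the IgG libraries. After thinning to 2000 UMIs it was 7.82% and 7.93% in the anti-CD8 libraries and 5.07% and 5.21% in the IgG libraries. Cells with at least 20 Mmp12 UMIs numbered 21 of 486 and 23 of 758 in the anti-CD8 libraries and 10 of 434 and 12 of 558 in the IgG libraries. The groups did not overlap in any of these measures, which come from the same counts.

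In other states the Mmp12 difference took either sign, and the difference between states was not tested. In the AU022793/Kcnj2 cells it was -0.36 (adjusted p = 0.46), in the Fabp4/Atp6v0d2 cells -0.27 (adjusted p = 0.60) and in the Ccl4/Ccl3 microglia 0.94 (adjusted p = 0.96) at 3.90 CPM. Before adjustment Mmp12 had a p under 0.05 in 5 of the clusters and Mmp14 in 4; among all genes that p was reached by 322 of 10094 in the cluster with the lowest share and 1334 of 12942 in the one with the highest. The Mmp14 difference was 0.29 in the Gpr84/Il1b microglia, 0.28 in the Il12b/Cxcl2 cells, 0.26 in the AU022793/Kcnj2 cells and 0.21 in the Spp1/Postn cells, with adjusted p from 0.13 to 0.70. In the Apoc4/Ms4a7 cells Adamts1 (-0.56, adjusted p = 0.19) and Plau (-0.45, adjusted p = 0.20) were lower in both anti-CD8 libraries without passing the test.

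Whether the antibody difference itself varied between classes was tested by the interaction of class and group against microglia, with library as a block. Of 9 members tested for Spp1-high cells, 9 for macrophages and 10 for endothelial cells, 0 were called, against 0%, 0.00568% and 0.01% of all genes. The smallest unadjusted p belonged to Mmp2 in Spp1-high cells, whose difference exceeded that in microglia by 0.43 (SE 0.14, adjusted p = 0.95). Plau in Spp1-high cells was next, at -0.15 (SE 0.06, adjusted p = 0.95).

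Relatives of these genes were read from the same fits in 5 lists with 77 genes: 20 other metalloproteinases, 28 ADAM and ADAMTS proteases, 11 genes of plasminogen activation, 10 of heparan sulfate turnover, and 8 other inhibitors and activators. Between 30 (macrophages) and 47 (microglia) of the 77 were tested in a class, and 0 passed the test in any of the 6 classes. The median log2 fold change of the lists together lay between -0.05 and -0.01, against 0 for all genes. Before adjustment a p under 0.05 was reached, of the tested genes of all 5 lists, by 5 with a lower and 1 with a higher level in the anti-CD8 libraries of 47 in microglia, by 8 lower and 0 higher of 38 in Spp1-high cells, and by 4 lower and 2 higher of 30 in macrophages. In endothelial cells these were 2 lower and 0 higher of 32, in mural cells 3 lower and 1 higher of 45, and in ependymal cells 2 lower and 0 higher of 42. The shares among all genes, in either direction, are the 2.31% to 8.19% given above. The lower ones include 2 of 9 tested genes of the plasminogen activation list in microglia, 4 of 9 in Spp1-high cells and 3 of 7 in macrophages, a list picked out after its values were seen. Among them was Serpine2, a plasminogen activator inhibitor, in microglia, at 196 and 193 CPM in the anti-CD8 libraries and 223 and 221 CPM in the IgG libraries (-0.25, SE 0.05, adjusted p = 0.40).

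Several relatives had the smallest p of their class without passing. Sdc3, a heparan sulfate proteoglycan, in Spp1-high cells was 41.1 and 45.5 CPM in the anti-CD8 libraries and 50.7 and 49.6 CPM in the IgG libraries (-0.25, adjusted p = 0.53). In mural cells Cd44, a hyaluronan receptor, was 17.5 and 28.0 CPM in the anti-CD8 libraries and 8.51 and 11.96 CPM in the IgG libraries (1.09, adjusted p = 0.43). Mural Adamts4, an aggrecanase, was 133 and 123 CPM in the anti-CD8 libraries and 264 and 151 CPM in the IgG libraries (-0.73, adjusted p = 0.46). The remaining ones by this rule were Sulf2 in microglia, Serpine2 in Spp1-high cells, Mmp27 in macrophages, Adam15 and Adamts10 in endothelial cells, and Sulf1 and Adamts16 in ependymal cells, with adjusted p from 0.49 to 1.0.

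The levels of the relatives place the 10 genes among other components of the same pathways. Plaur, the urokinase receptor, was found in the phagocytes that made Plau, at 146 CPM in microglia, 108 CPM in Spp1-high cells and 176 CPM in macrophages, and also in endothelial cells at 102 CPM. Plat, tissue-type plasminogen activator, was vascular and ependymal instead, with 481 CPM in endothelial cells, 415 CPM in mural cells and 198 CPM in ependymal cells, and 1.03 to 1.18 CPM in the 3 phagocyte classes. Plasminogen itself (Plg) gave 9 UMIs in the tested classes together. Reck, a membrane-bound metalloproteinase inhibitor, was 162 CPM in endothelial and 105 CPM in mural cells, on the side of Timp3. Mmp9, gelatinase B, gave 46 UMIs in the tested classes and Mmp3 gave 0 there. The counts of Plg, Mmp9 and Mmp3 leave out all other classes, among them neutrophils and fibroblasts.

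For each gene the 3 most similar genes were taken by Pearson correlation of log2(CPM + 1) over 78 sums of class or myeloid state and library, among 16115 genes. These sums share libraries and depth, so the values describe likeness only. Mmp12 was most like Htr2b (r = 0.841), Adam8 (0.840) and Stra6l (0.837), and Adam8 was most like Aprt (0.894). Mmp14 was most like Tns3 (0.932), Mmp2 like Gm13067 (0.895) and Plau like Ctsb (0.923), the gene of the lysosomal protease cathepsin B. Timp2 was most like Cd63 (0.964), and Ctsb was also among its 3 (0.955). Hpse was most like Lyz2 (0.897), Adamts1 like Jam2 (0.905) and Timp3 like Fermt2 (0.990), while Timp1, with its few UMIs, was most like Glud1 (0.871). Between the 10 genes themselves, the highest r was 0.858, for Plau and Timp2, and the lowest -0.759, for Adam8 and Timp3.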

How the data were processed

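The deposited matrices hold whole-number UMI counts (genes by barcodes), which the authors made with Cell Ranger 7.1.0 and GRCm39, per the submitters' processing notes. How intronic reads were handled, and which annotation was used, is not given in the sources used here. Barcodes with under 300 genes or over 20% mitochondrial UMIs were left out, and in each library the barcodes with the highest simulated-doublet scores were removed at 0.8% per 1000 cells. Clusters came from leidenalg 0.10.2 in scanpy 1.11.5 (3000 variable genes, 30 principal components, 15 neighbours, resolution 1). The 10 genes and the 77 relatives were kept out of the variable genes. Clusters were named from marker lists by mean log2 fold: at least 1.5, and 0.3 above the next list. Other myeloid clusters were called microglia where at least 5 of 10 microglia markers stood at 2 times the macrophage level, and Spp1-high otherwise. These limits were set after seeing the clusters. Clusters of 949, 428 and 199 cells, with a median depth under 0.2 of their library's, stayed unnamed, and 1 cluster whose leading genes went against its list is called by those genes (Igkc/Jchain cells).

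Counts were summed per library and class, converted to CPM for display, and tested with edgeR 4.0.16 (quasi-likelihood F test, TMM scaling, filterByExpr, Benjamini-Hochberg over all genes tested in the class, two-sided, call at an adjusted p under 0.05); DESeq2 1.42.0 was an alternative. Intervals are 95% intervals from the same fit, and the fold changes are log2, anti-CD8 over IgG. Levels of different classes were not tested against each other. The fit was tested on simulated data: in microglia 72 of 100 genes changed by 1 on the log2 scale and 100 of 100 changed by 2 were recovered, and in ependymal cells 63 and 99. The simulation used the same fixed dispersion for all genes and changed only genes expected above 20 UMIs in the smallest library. These rates therefore do not describe genes with few UMIs or a wider spread. The 10 genes and the lists of relatives were chosen with earlier results of these data known. Relatives are named where they passed the test in a class, and otherwise where they had 1 of the 2 smallest p-values, and the 3 most similar genes were named for each gene (1 relative is not reported here); Plaur, Plat, Plg, Reck, Mmp9, Mmp3 and the state and myeloid marker genes are given for their levels only. The single-cluster fits and the limit of 20 UMIs were chosen after seeing the data. Alternatives were another scaling, library totals, no filter, DESeq2, each library left out, the replicate number as a block, doublets kept, a stricter cell filter (at least 1000 UMIs, at most 10% mitochondrial) and resolution 2. Nothing says whether a library pools animals, so p-values here rest on the spread of these 4 libraries.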

Additional observations from a re-analysis of the deposited data

How the results depend on the processing

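The 10 genes gave 0 calls over the 6 classes with another scaling, library totals, DESeq2, doublets kept, the stricter cell filter and resolution 2. Without the filter on low counts 4 were called (Timp2 and Mmp12 in mural cells, Mmp2 and Mmp12 in ependymal cells), and with a library left out 0 to 4. The counts of all genes called moved more. Without the filter they were 554 in microglia, 77 in Spp1-high cells, 97 in macrophages, 135 in endothelial cells, 105 in mural cells and 135 in ependymal cells. With DESeq2 they were 81 in microglia, 24 in Spp1-high cells, 3 in macrophages, 4 in endothelial cells and 9 in ependymal cells. Leaving out a library gave 0 to 137 in microglia, 4 to 149 in Spp1-high cells, 4 to 81 in macrophages, 0 to 265 in endothelial cells, 3 to 107 in mural cells and 0 to 172 in ependymal cells. With doublets kept there were 1 in endothelial, 2 in mural and 0 in ependymal cells. The stricter filter gave 0 in macrophages and 2 in ependymal cells, resolution 2 gave 4 in macrophages and 3 in mural cells, and library totals gave 1 in mural cells. Class definitions chosen after seeing the data gave 5 in microglia without the interferon-high cluster and 0 in mural cells without the cluster with endothelial RNA. The cause of these changes was not tested.

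Deviations of same-numbered libraries from their group means had correlations of -0.03 to 0.09 over the genes of a class. With only 2 pairs this cannot show whether the replicate numbers pair the samples. With the number as a replicate block 2 of the 10 genes were called, Timp2 in mural cells (-0.59) and Mmp12 in ependymal cells (-2.31), and the counts were 4 in microglia, 76 in Spp1-high cells, 8 in endothelial cells, 71 in mural cells and 56 in ependymal cells.

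The direction of some fold changes turned. Mmp14 in macrophages (-0.02) was 0.03 with library totals and 0.33 at resolution 2, where Hpse in macrophages (-0.33) was 0.97, with 400 cells in place of 1672. With a library left out the log2 fold change ranged from -0.14 to 0.09 for Mmp14 and from -0.40 to 0.14 for Mmp2 in macrophages, from -0.23 to 0.07 for Adam8 and -0.15 to 0.01 for Timp2 in Spp1-high cells, from -0.23 to 0.12 for Adamts1 in mural cells, from -1.16 to 0.61 for Timp1 (-0.56) in ependymal cells and from -0.07 to 0.18 for Timp3 in endothelial cells. Of the 10 genes, 8 kept the highest of the 6 classes after thinning to 2000 UMIs, Adamts1 and Timp1 being the exceptions. The test of the difference between classes was not repeated without a replicate number, since no residual degrees of freedom remain.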

Other observations

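Relatives of the 10 genes outside the comparisons above were also divided between cell classes; their levels are means over the 4 libraries, with no test between classes, and the genes named were chosen after their values were seen. Ependymal cells held the secreted protease gene Adamts20 at 630.3 CPM, against at most 0.584 CPM in the other 5 classes. They also had the highest levels of Mmp16, a membrane-type metalloproteinase (66.0 CPM), Adam22, which encodes a neuronal adhesion protein without protease activity (168 CPM), and Timp4 (66.8 CPM). Serpine2 was 351 CPM in ependymal cells, 208 CPM in microglia and 154 CPM in Spp1-high cells, but 20.6 CPM in macrophages. Adamts4 and Adamts5, both aggrecanases, were highest in mural cells, at 168 and 38.3 CPM, and Adamts9 was 131 CPM in mural and 128 CPM in endothelial cells. Endothelial cells also led for Mmp28 (23.5 CPM) and Adam15 (181 CPM). Bsg, a membrane protein known as an inducer of metalloproteinases, was 11160 CPM in endothelial and 6733 CPM in mural cells.

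Among phagocytes Adam17, the sheddase that releases tumour necrosis factor, was 214 CPM in microglia, 172 CPM in Spp1-high cells and 195 CPM in macrophages. Adam19 was 21.5 CPM in macrophages and 10.04 CPM in mural cells, against 0.278 CPM in microglia. Mmp19 had 11.96 CPM in macrophages and 2.51 CPM in microglia. Cst3, which encodes the cathepsin inhibitor cystatin C, was 11180 CPM in microglia, 6315 CPM in Spp1-high cells and 3334 CPM in macrophages. Anxa2 and S100a10, whose products form a complex that binds plasminogen and its activator, were highest in ependymal cells, at 542 and 210.7 CPM.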
